A study of Mus musculus with 24 samples.

Results

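The genes described here encode 10 proteins of the inflammasome and of necroptosis, both of which end in lysis of the cell: the sensors Nlrp3, Nlrp1b and Aim2, the adaptor Pycard (ASC), the inflammatory caspases Casp1 and Casp4, the pore-forming protein Gsdmd, the initiator caspase Casp8, and the necroptosis kinase and effector Ripk3 and Mlkl. They were taken by symbol from a table of read counts for 55421 genes. Each of the 10 symbols matched 1 Ensembl identifier, and all 10 were among the 16593 genes with enough reads to be tested. The rule used no measured value, but the genes were chosen with earlier results of these data known. The table holds 24 RNA-seq libraries of bone marrow-derived macrophages (BMDMs), macrophages grown in culture from mouse bone marrow, in 4 groups of 6. The cells came from C57/B6/J wildtype (WT) mice or from mice that lack the aryl hydrocarbon receptor in every cell (AhR-KO, B6.129-Ahr tm1Bra/J), age- and sex-matched, of both sexes, with 6 animals per group. Whether unstimulated and LPS cultures came from the same animals is not stated in the sources used here. All bone marrow was grown with GM-CSF at 10 ng/ml and TGF-ß at 2 ng/ml, a mixture meant to give alveolar-like macrophages. On day 6 cultures were left unstimulated or received LPS, the bacterial ligand of TLR4, at 97 EU/ml for 24 h. The protocol given for all samples then adds the Ca2+-ionophore A23187 at 5 µM for 10 min before RNA was taken. If followed as written, no group was free of it. The libraries carry the numbers 17 to 40, which are used below as replicate numbers. Depth ran from 45106052 to 76992663 counts per library, and the 60 pairs of libraries of the same group all differed by far more than counting noise (chi-square per degree of freedom from 16.3 to 1147).

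The inflammasome is a cytosolic complex in which a sensor binds the adaptor Pycard, which in turn recruits and activates Casp1, though some sensors can also recruit Casp1 directly. Casp1 matures IL-1β and IL-18 and cleaves Gsdmd, whose fragment forms pores in the plasma membrane. Casp4 (caspase-11 in the mouse) binds cytosolic LPS itself and also cleaves Gsdmd. Necroptosis runs in parallel: when Casp8 is inactive, Ripk3 phosphorylates Mlkl, which then ruptures the membrane. In macrophages a first signal such as LPS is known to raise the transcripts of several of these genes, while assembly of the complexes is controlled at the level of protein. The counts below are of transcripts only and say nothing about cleavage, assembly or death.

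Levels are given as CPM, the count per 1000000 counts of the library after scaling by TMM, and, where genes are compared with each other, as CPM per kilobase of the gene's exons. This length takes all exon bases listed for the gene, and the order of genes depends on it. For Pycard it was 3800 bases of a gene at chr7:127989708-127993867, nearly the whole gene. Per kilobase, Pycard was the most abundant of the 10 transcripts in unstimulated wildtype BMDMs at 83.3 ± 44.5 (SD, n = 6), followed by Casp8 at 41.8 ± 4.18 and Gsdmd at 24.1 ± 2.62, and the library ranges of these 3 genes did not overlap. Casp1 (12.96 ± 1.67), Ripk3 (11.1 ± 1.46), Aim2 (10.1 ± 0.792), Nlrp3 (8.17 ± 3.07) and Mlkl (7.80 ± 1.97) followed, each overlapping the next in order. The mean of Casp4 was lower at 3.83 ± 0.445, although the lowest library of Nlrp3 (2.98) lay below the range of Casp4, and Nlrp1b was lowest at 0.344 ± 0.101. After LPS Casp8 (66.1 ± 8.14), Gsdmd (65.5 ± 11.9) and Pycard (61.5 ± 35.1) remained the 3 highest by mean in wildtype BMDMs. Their library ranges each overlapped the next in order, and that of Pycard overlapped that of Casp1. In AhR-deficient BMDMs Pycard (60.5 ± 29.5), Casp8 (38.8 ± 3.72) and Gsdmd (19.9 ± 2.19) were highest without stimulation, and after LPS Casp1 (88.8 ± 22.1), Gsdmd (85.7 ± 18.8) and Mlkl (83.0 ± 16.7) were the 3 highest on the per-kilobase scale, with overlapping ranges, and Nlrp1b remained last at 0.0191 ± 0.0126.

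**Figure D1:**
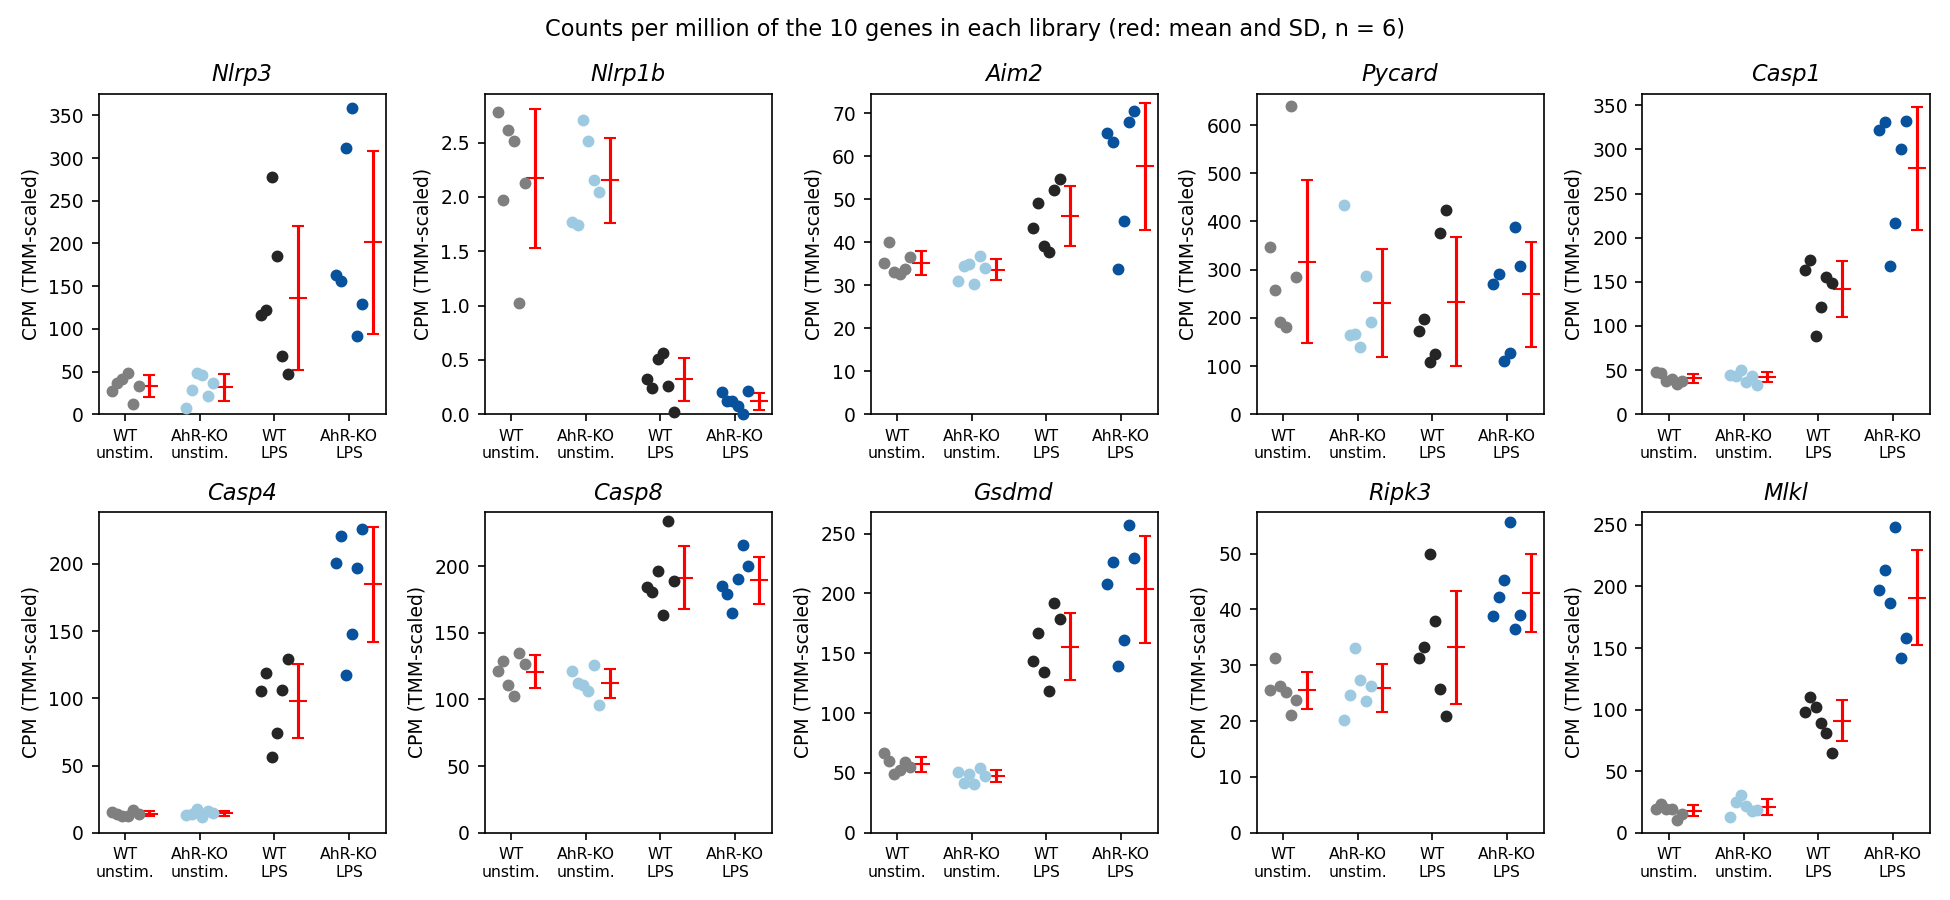
CPM (vertical axes, linear from 0) of each of the 10 genes in every library, by group (horizontal axes), with 1 point per library and the mean and SD (n = 6) in red. Mlkl after LPS lay between 64.9 and 111 CPM in wildtype and between 142 and 249 CPM in AhR-deficient BMDMs, whereas Pycard spread over more than 3-fold within every group.

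LPS raised 5 of the 10 transcripts in wildtype BMDMs and lowered 1, against 13.2% of all tested genes called higher and 11.8% called lower in that comparison (24.9% in all). A gene was called when edgeR's quasi-likelihood test gave a Benjamini-Hochberg adjusted p no greater than 0.05 over all 16593 genes and the fold change was at least 2. The 5 that rose were Casp4, Mlkl, Nlrp3, Casp1 and Gsdmd, and the 1 that fell was Nlrp1b. In AhR-deficient BMDMs the same 5 genes rose and Nlrp1b fell, against 15.1% called higher and 15.7% called lower over all genes (30.8% in all). By the adjusted p alone 8 of the 10 passed in wildtype and 9 in AhR-deficient BMDMs, beside 38% and 44.6% of all genes. The LPS and unstimulated libraries did not overlap for 6 of the 10 in wildtype and 8 in AhR-deficient BMDMs, beside 22.4% and 28.5% of all genes. Because RNA was taken from whole cultures, fewer cells of a type and less RNA per cell cannot be told apart for any of these values. The median log2 fold change of the 10 genes with LPS was 1.05 in wildtype and 1.44 in AhR-deficient BMDMs, beside 0.03 and -0.03 over all genes tested.

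Among the sensors, Nlrp3, which responds to potassium efflux and membrane damage, had 12.1, 34.9 and 48.0 CPM (lowest, median and highest of 6 libraries) in unstimulated wildtype BMDMs and 47.0, 119 and 278 CPM after LPS. The lowest wildtype library after LPS lay just below the highest unstimulated one. The fitted change was 4.11-fold (log2 fold change 2.04, SE 0.46, edgeR adjusted p = 9.85e-04). In AhR-deficient BMDMs it went from 7.61, 32.4 and 48.4 CPM to 91.6, 159 and 358 CPM, a 6.40-fold rise without overlap (log2 fold change 2.68, SE 0.47, edgeR adjusted p = 5.06e-05).

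Nlrp1b, a sensor of proteolytic activity, moved the other way. It had 1.02, 2.32 and 2.78 CPM in unstimulated wildtype libraries and 0.0245, 0.295 and 0.567 CPM after LPS, with no overlap (log2 fold change -2.73, SE 0.49, edgeR adjusted p = 8.96e-05). The corresponding AhR-deficient levels were 1.74, 2.10 and 2.70 CPM and 0, 0.120 and 0.210 CPM (log2 fold change -4.12, SE 0.53, edgeR adjusted p = 8.79e-07). These are few reads: 37 over the 6 AhR-deficient libraries after LPS and 115 over the 6 wildtype ones, with no read in AhR-deficient replicate 39. Nlrp1b also has close copies, Nlrp1a and Nlrp1c-ps, and since only uniquely aligned reads were counted, reads that match more than 1 copy are missing from its count.

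Aim2, which binds double-stranded DNA in the cytosol, changed by less than 2-fold. Its unstimulated levels lay within 32.7 to 40.2 CPM in wildtype and 30.4 to 36.8 CPM in AhR-deficient libraries, and LPS brought them to 37.8 to 54.8 CPM and 33.7 to 70.5 CPM. The log2 fold changes were 0.39 (SE 0.15, edgeR adjusted p = 0.0444) and 0.78 (SE 0.15, edgeR adjusted p = 1.44e-04), both below the fold required for a call. Pycard, the adaptor that links sensors to Casp1, was called with LPS in neither genotype. Its medians were 271 CPM unstimulated and 185 CPM after LPS in wildtype, and 179 and 281 CPM in AhR-deficient BMDMs, with wide and overlapping ranges (log2 fold change with LPS -0.44, 95% interval -1.21 to 0.34, and 0.11, -0.66 to 0.89).

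Both inflammatory caspases rose with LPS. Casp1 rose from 34.2, 39.1 and 47.6 CPM to 88.5, 152 and 175 CPM in wildtype (3.49-fold, log2 fold change 1.80, SE 0.18, edgeR adjusted p = 2.21e-08). In AhR-deficient BMDMs it rose from 33.2, 43.9 and 50.1 CPM to 168, 312 and 332 CPM (6.63-fold, log2 fold change 2.73, SE 0.19, edgeR adjusted p = 2.30e-11). Casp4 rose in wildtype from 12.3, 14.1 and 16.6 CPM to 56.6, 106 and 129 CPM (6.91-fold, log2 fold change 2.79, SE 0.19, edgeR adjusted p = 7.61e-11). In AhR-deficient BMDMs Casp4 went from 11.9, 14.5 and 17.4 CPM to 117, 199 and 226 CPM (12.7-fold, log2 fold change 3.66, SE 0.20, edgeR adjusted p = 6.99e-13). In neither gene did an LPS library of either genotype overlap the unstimulated ones.

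Gsdmd, their common substrate, rose from a median of 57.1 CPM (range 49.4 to 66.9) to 155 CPM (118 to 192) in wildtype BMDMs, 2.72-fold. In AhR-deficient BMDMs it rose from 48.0 CPM (40.9 to 54.2) to 217 CPM (139 to 257), 4.31-fold, with log2 fold changes of 1.44 (SE 0.15, edgeR adjusted p = 3.92e-08) and 2.11 (SE 0.15, edgeR adjusted p = 6.16e-11). On the necroptosis side, Mlkl rose from 10.6, 19.5 and 23.7 CPM to 64.9, 93.6 and 111 CPM in wildtype, 5.07-fold (log2 fold change 2.34, SE 0.21, edgeR adjusted p = 6.15e-09). Its AhR-deficient levels went from 12.7, 19.98 and 30.8 CPM to 142, 192 and 249 CPM, 9.08-fold (log2 fold change 3.18, SE 0.22, edgeR adjusted p = 3.55e-11). The kinase upstream of it, Ripk3, moved little. It had log2 fold changes with LPS of 0.38 in wildtype (SE 0.17, edgeR adjusted p = 0.0859) and 0.73 in AhR-deficient BMDMs (SE 0.17, edgeR adjusted p = 0.00118), and only in the latter did the groups not overlap (20.2 to 33.05 against 36.5 to 55.7 CPM). Casp8, the caspase that restrains Ripk3, rose by less than 2-fold in both genotypes (log2 fold change 0.66, SE 0.11, edgeR adjusted p = 1.95e-05, and 0.76, SE 0.11, edgeR adjusted p = 2.31e-06), with no overlap in either.

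**Figure D2:**
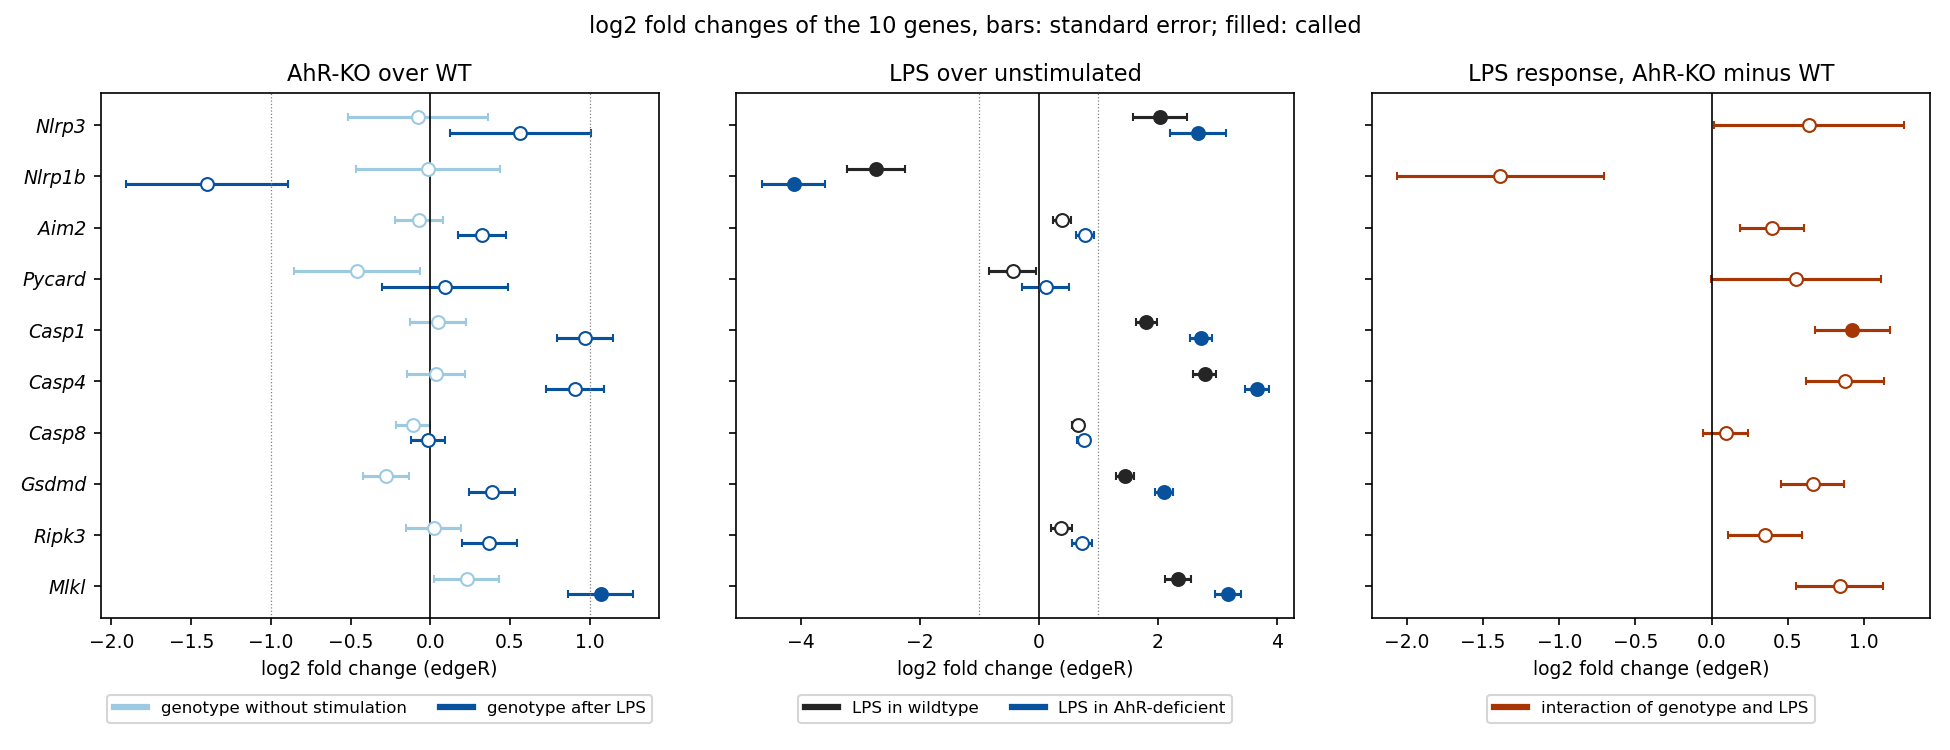
Fitted log2 fold changes (horizontal axes) of the 10 genes with standard errors (bars), for genotype (left), LPS (middle) and the difference of the LPS response between genotypes (right). Filled points passed the call. The unstimulated genotype differences lie between -0.46 and 0.23, and after LPS Mlkl (1.07), Casp1 (0.97) and Casp4 (0.91) lie furthest to the right.

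Whether the genotypes differ in these transcripts was asked first without stimulation. None of the 10 genes was called in either direction, against 4.48% of all genes tested. Without the fold rule none passed either in the main fit, which 6.12% of all genes did. By the unadjusted p none of the 10 was at or under 0.05, beside 2316 of the 16593 genes, and the other tools and settings tried also called 0 of the 10. By the adjusted p alone, below 2-fold, Pycard and Gsdmd each passed in at least 1 of those settings. The estimate for Pycard was -0.46 (95% interval -1.24 to 0.31), and it fell in size to -0.13 without wildtype replicate 33 and rose to -0.74 without AhR-deficient replicate 19. Those for Gsdmd and Mlkl were -0.28 (-0.56 to 0.01) and 0.23 (-0.17 to 0.63). For Casp1 the interval was -0.29 to 0.39, for Casp4 -0.32 to 0.39 and for Casp8 -0.31 to 0.10, so a 2-fold difference lies outside all 3. For Nlrp3 (-0.94 to 0.79) and Nlrp1b (-0.90 to 0.87) the intervals are wider but also end short of 2-fold.

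After LPS, Mlkl was called higher in AhR-deficient BMDMs, the only one of the 10 to pass, against 2.17% of all genes called higher and 8.35% called in either direction. All 6 AhR-deficient libraries (142 to 249 CPM) lay above all 6 wildtype ones (64.9 to 111 CPM), a separation in this direction that 2.59% of all genes showed. The means were 191 ± 38.4 and 91.1 ± 16.4 CPM (SD, n = 6 each), and the fitted difference was 2.10-fold (log2 fold change 1.07, SE 0.21, edgeR adjusted p = 7.66e-04). Casp1 and Casp4 passed the adjusted p but fell just short of the 2-fold rule, at 1.96-fold (log2 fold change 0.97, SE 0.18, edgeR adjusted p = 3.87e-04) and 1.88-fold (log2 fold change 0.91, SE 0.18, edgeR adjusted p = 0.00113). For each of them 5 of the 6 AhR-deficient libraries lay above the wildtype range, and the lowest, replicate 31, lay within it (168 CPM for Casp1, 117 CPM for Casp4). Thus in this main fit 3 of the 10 genes were higher by the adjusted p alone, against 4.33% of all genes higher and 12.6% in either direction. The call of Mlkl rests on the fold rule in 2 libraries: without AhR-deficient replicate 32 its log2 fold change was 0.97 (edgeR adjusted p = 0.00291) and without wildtype replicate 38 it was 0.98 (edgeR adjusted p = 0.00259). Casp1 in turn passed the 2-fold rule beside Mlkl without wildtype replicate 21 or 22, and both caspases did without AhR-deficient replicate 31 (3 of the 10 genes). In the 2 fits in which Mlkl lost its call, Casp1 was called without AhR-deficient replicate 32 (1.03), and Casp4 (1.001) and Nlrp1b (-1.64) without wildtype replicate 38. Scaling to total library size in place of TMM gave 0.85 (edgeR adjusted p = 0.0221), a scale on which the median of all genes stood at -0.26.

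The remaining genes did not pass after LPS in the main fit. By the adjusted p alone, always below 2-fold, Nlrp3, Ripk3, Gsdmd and Casp8 each passed in at least 1 of the 12 other settings. Gsdmd, Ripk3 and Aim2 each did so in at least 1 of the 24 fits that left out 1 library. Gsdmd (0.39, 95% interval 0.10 to 0.67, edgeR adjusted p = 0.089), Ripk3 (0.37, 0.04 to 0.71, edgeR adjusted p = 0.191), Aim2 (0.32, 0.03 to 0.62, edgeR adjusted p = 0.187) and Nlrp3 (0.57, -0.30 to 1.43, edgeR adjusted p = 0.549) had positive estimates. Casp8 (-0.01, -0.22 to 0.19) and Pycard (0.09, -0.68 to 0.87) lay close to 0. Nlrp1b had the largest estimate in size, -1.40 (95% interval -2.40 to -0.40, edgeR adjusted p = 0.077), from 37 against 115 reads, and it was called by DESeq2 (-1.38, DESeq2 adjusted p = 0.0135) and without wildtype replicate 38 (-1.64, edgeR adjusted p = 0.0137). By the unadjusted p, 7 of the 10 genes were at or under 0.05 after LPS, beside 3814 of the 16593 genes. The median of the 10 log2 fold changes was 0.38, beside -0.05 over all genes tested.

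The difference between the LPS responses of the 2 genotypes was tested as an interaction in the same fit, where an adjusted p up to 0.05 counted as passing whatever the fold. Casp1 passed, the only one of the 10, against 1.95% of all genes with a more positive response in AhR-deficient BMDMs and 4.3% in either direction. Its response was 1.90-fold greater (log2 difference 0.92, SE 0.25, edgeR adjusted p = 0.0309). Casp4 (0.87, SE 0.26, edgeR adjusted p = 0.055), Mlkl (0.84, SE 0.29, edgeR adjusted p = 0.118) and Gsdmd (0.67, SE 0.21, edgeR adjusted p = 0.0725) had estimates of 0.67 to 0.87 but missed the threshold. All 3 passed with the run of 8 libraries as a factor (edgeR adjusted p = 0.00738, 0.0218 and 0.00776). The call of Casp1 lay close to it as well: in 9 of the 24 fits that left out 1 library (wildtype 17, 18 and 30, AhR-deficient 23, 24, 28, 36, 39 and 40) its adjusted p rose to between 0.0513 and 0.061, with log2 differences of 0.82 to 1.03 over all 24. More than 1 of the 10 genes passed in 6 other such fits: 3 genes without AhR-deficient replicate 27 or 31, and 2 genes without AhR-deficient replicate 32 or wildtype replicate 33, 37 or 38. Scaling to total library size gave 0.81 (edgeR adjusted p = 0.0831), and keeping all genes with any count gave 0.92 (edgeR adjusted p = 0.0644).

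Casp1 and Casp4 are neighbours on the same strand of chromosome 9 (mm10), Casp1 at chr9:5298508-5307290 and Casp4 at chr9:5308828-5336783, 1537 bases apart. Mlkl lies on the minus strand of chromosome 8 at chr8:111311797-111338177. None of the 10 genes shares exonic bases with another gene on its own strand, by the exons listed in the count table itself (mm10, Ensembl 98). Since Casp1, Casp4 and Mlkl were the 3 that passed the adjusted p between genotypes after LPS, their promoters are shown, from 250 bases before to 50 after the start (RefSeq, GRCm38.p6, read 5′ to 3′ on the gene's strand). The windows are chr9:5298267-5298566 (+) for Casp1, chr9:5308599-5308898 (+) for the first of the 2 starts of Casp4 and chr8:111338156-111338455 (-) for Mlkl. Capitals mark a κB form, GGG, any 5 bases, then CC on either strand, in Casp1 and Casp4 and the AhR core GCGTG in Mlkl.
Casp1: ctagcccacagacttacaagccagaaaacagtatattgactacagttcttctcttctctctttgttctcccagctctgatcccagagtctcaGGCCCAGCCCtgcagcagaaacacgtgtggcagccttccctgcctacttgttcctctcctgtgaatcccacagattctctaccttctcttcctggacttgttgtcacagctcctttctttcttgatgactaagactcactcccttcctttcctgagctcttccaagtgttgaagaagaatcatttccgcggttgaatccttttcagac
Casp4: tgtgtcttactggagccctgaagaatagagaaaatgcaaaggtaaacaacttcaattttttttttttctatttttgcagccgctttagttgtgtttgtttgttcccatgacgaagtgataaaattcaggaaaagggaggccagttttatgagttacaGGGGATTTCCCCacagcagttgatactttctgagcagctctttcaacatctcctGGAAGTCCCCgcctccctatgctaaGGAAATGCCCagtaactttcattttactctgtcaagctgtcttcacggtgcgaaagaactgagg
Mlkl: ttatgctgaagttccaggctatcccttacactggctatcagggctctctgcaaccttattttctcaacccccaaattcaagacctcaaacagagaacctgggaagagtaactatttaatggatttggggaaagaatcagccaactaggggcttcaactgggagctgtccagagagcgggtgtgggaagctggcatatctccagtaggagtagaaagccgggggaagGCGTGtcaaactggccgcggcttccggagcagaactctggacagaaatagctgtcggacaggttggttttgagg

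RefSeq windows were found for 9 of the 10 genes; the other is Gsdmd. The κB form was present in Casp1, Casp4 and Nlrp3, and it is a loose pattern found in 50.8% of 32851 promoter windows of the same length. In Casp4 it matched 5 times, 3 of them overlapping in the first capital stretch. The AhR core was present in Mlkl, 24 bases before the start, and in Ripk3, 106 bases before, and in 32.4% of all windows. Neither an interferon-stimulated response core, GAAA, any 2 bases, then GAAA on either strand (3.44% of all windows), nor the STAT form TTCNNNGAA (8.3%) was found in any of the 9 genes. A match is a stretch of letters and not a bound site, and a missing match says only that these letters are not in the window.

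The genotype differences after LPS were looked at again within each run of 8 consecutive library numbers (17 to 24, 25 to 32, 33 to 40), which hold 2 libraries of each group. The labels do not say what a run is. The difference of mean log2(CPM + 0.5) was 0.98 to 1.17 for Mlkl, 0.88 to 1.05 for Casp1 and 0.84 to 1.02 for Casp4 over the 3 runs. All 3 genes were thus higher in AhR-deficient BMDMs in each run by a like amount. Gsdmd (0.25 to 0.48), Ripk3 (0.20 to 0.69), Nlrp3 (0.42 to 0.94) and Aim2 (0.02 to 0.47) were also above 0 in all 3. Nlrp1b (-0.80 to -0.09) and Casp8 (-0.016 to -0.0033) were below 0 in all 3, and Pycard varied (-0.21 to 0.61). At the low level of Nlrp1b the added 0.5 shrinks the difference. In libraries 25 to 32 after LPS it had 0.506 and 0.567 CPM in wildtype and 0.0721 and 0.118 CPM in AhR-deficient BMDMs. For Aim2 the smallest difference was in libraries 25 to 32, where LPS libraries had 37.8 and 39.1 CPM in wildtype and 33.7 and 44.9 CPM in AhR-deficient BMDMs, beside 43.3 to 54.8 and 63.3 to 70.5 CPM in the other runs.

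The runs differed in a property of whole libraries, the slope of log2 CPM on log2 gene length, which averaged 0.26 in libraries 25 to 32, 0.03 in 17 to 24 and -0.10 in 33 to 40. Nlrp3 and Pycard moved with it in opposite directions. In every group the 2 libraries of the middle run had the highest Nlrp3 of the 6. They also had the lowest Pycard in 3 of the 4 groups, and in unstimulated AhR-deficient BMDMs 1 library of the first run (164 CPM) lay between them (139 and 166 CPM). After LPS, AhR-deficient libraries of that run had 311 and 358 CPM of Nlrp3 beside 91.6 to 163 CPM in the other 4, and 111 and 126 CPM of Pycard beside 270 to 389 CPM. With the slope added to the fit, 1 SD of slope corresponded to a log2 change of 0.77 for Nlrp3 (edgeR adjusted p = 1.08e-12) and -0.64 for Pycard (edgeR adjusted p = 6.65e-14). Of all genes 71.4% passed for the slope, which is itself computed from these genes. It was smaller for Mlkl (0.26), Ripk3 (0.22), Gsdmd (-0.18), Casp4 (-0.18) and Casp1 (-0.11, edgeR adjusted p = 0.0871). With the slope as a covariate the number of the 10 genes in the interaction rose from 1 to 7 (Nlrp3, Pycard, Casp1, Casp4, Gsdmd, Ripk3 and Mlkl), with Nlrp3 at 0.97 (edgeR adjusted p = 7.39e-04), and over all genes from 713 to 2729. With the run as a factor it was 4 (Casp1, Casp4, Gsdmd and Mlkl). Which feature of the libraries the slope reflects was not tested.

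**Figure D3:**
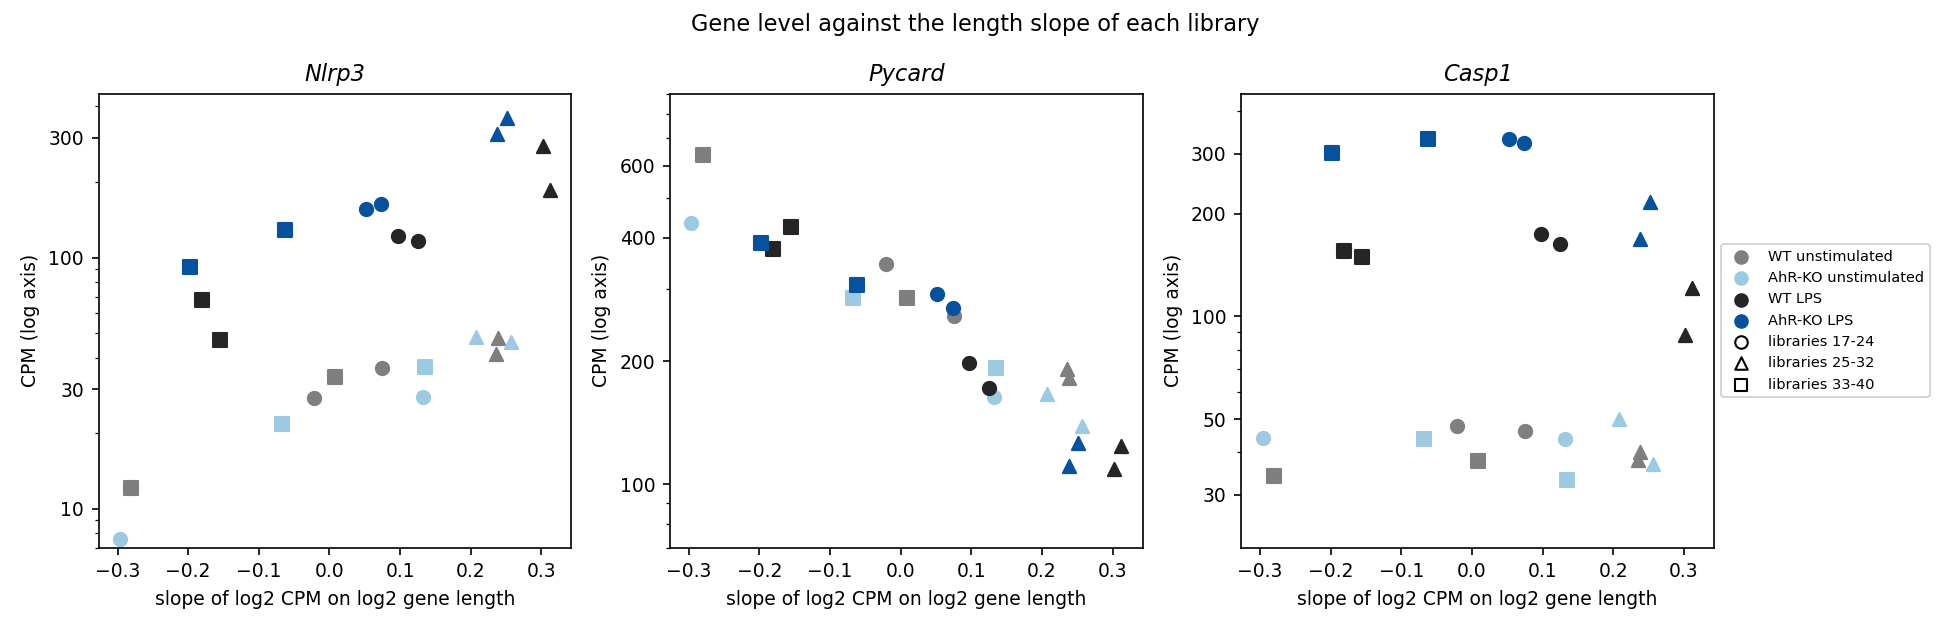
CPM (log axes) of Nlrp3, Pycard and Casp1 in each of the 24 libraries against that library's slope of log2 CPM on log2 gene length (horizontal axes), coloured by group and shaped by run. Libraries 25 to 32, at slopes of 0.21 to 0.31, hold the highest Nlrp3 of every group, and after LPS the lowest Pycard of both genotypes.

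The targeted gene does not serve as a check here, since the mutation removes an early exon and the count covers the whole gene. Ahr had 4.73 to 10.96 CPM in unstimulated AhR-deficient libraries, beside 9.60 to 43.1 CPM in wildtype, and after LPS it was higher in the libraries labelled AhR-KO (21.4 to 63.8 against 6.57 to 27.9 CPM, log2 fold change 1.36, SE 0.35, edgeR adjusted p = 0.011, and 0.0574 with total library sizes). Ahrr, a direct target of AhR, had at most 1.04 CPM in the 12 libraries labelled AhR-KO and at least 13.3 CPM in the 12 wildtype ones. Macrophage markers were high in all groups (7 genes, summed to 12064 to 33668 CPM), as were those of alveolar macrophages (6 genes, 3519 to 10380 CPM). Of the 7 macrophage markers 2 had estimates above 0 and 5 below between genotypes after LPS (median -0.07), and 3 and 4 in the interaction (median -0.09). The 1 called in each, Fcgr1, was higher in AhR-deficient BMDMs after LPS (log2 fold change 1.24) and in the interaction (1.38). Of the 6 alveolar macrophage markers, 5 had estimates above 0 in each genotype comparison (median 0.80 without stimulation and 0.76 after LPS). Among these Siglecf was called higher without stimulation (1.57) and Car4 after LPS (1.004). The Fcgr1 interaction was lost in 17 of the 24 fits with 1 library left out (edgeR adjusted p up to 0.0844), and the Car4 call, which sits at the fold rule, in 8.

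Markers of other cells moved with genotype. Neutrophil markers (8 genes) summed to 1514 to 11963 CPM in unstimulated wildtype and 228 to 748 CPM in AhR-deficient libraries, and to 657 to 8047 and 130 to 973 CPM after LPS. Without stimulation 7 of the 7 tested were called lower in AhR-deficient BMDMs, and 5 of 7 after LPS, among them S100a8, S100a9, Elane, Ltf and Cxcr2, while Mpo was near 0 throughout and Ly6g and Camp were called only without stimulation. Without wildtype replicate 37 the call of S100a8 after LPS was lost (-1.70, edgeR adjusted p = 0.0858). Dendritic cell markers (8 genes) summed to 55.3 to 141 and 10.7 to 33.5 CPM without stimulation and 580 to 2456 and 101 to 896 CPM after LPS. Of 7 tested, Flt3, Ccr7, Cd207 and Dpp4 were lower and Clec9a higher without stimulation, and 6 were lower after LPS (those 4 with Zbtb46 and Ciita), when Cd207 had no read in any AhR-deficient library. With 1 library left out, the call of Ciita after LPS was lost in 16 of 24 fits (edgeR adjusted p up to 0.123) and that of Ccr7 in 6. Clec9a also passed in the interaction (-2.30). Mast cell and basophil markers (6 genes) summed to at most 52.2 CPM in wildtype and 11.4 CPM in AhR-deficient libraries, with Kit, Cpa3, Mcpt8 and Gata2 called lower in both comparisons and Ms4a2 after LPS. Without stimulation the call of Mcpt8 was lost in 8 and that of Cpa3 in 4 of the 24 fits. Lymphocyte markers (7 genes) were at or near 0, with sums of at most 0.971 CPM. Leaving out the 2 libraries with the highest neutrophil sums of their groups, wildtype 33 and 37, changed none of the 5 counts of called genes among the 10. The unstimulated wildtype libraries that remain still have at least 1514 CPM of these markers against at most 748 CPM in AhR-deficient ones, so this fit keeps the marker difference. The part of cells other than macrophages in the values of the 10 genes was not tested.

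The other genes of the inflammasome were examined as 3 lists. Among 10 further sensors, of which all but Nlrp6 were tested, after LPS 1 was called higher and 1 lower where AhR was absent, and none without stimulation. Naip1, a receptor for bacterial secretion needle protein, had 2.92 to 7.89 CPM in AhR-deficient and 0.696 to 2.12 CPM in wildtype libraries after LPS (log2 fold change 1.79, SE 0.30, edgeR adjusted p = 1.69e-04). Nlrp10 was lower (0 to 0.531 against 0.528 to 2.45 CPM, log2 fold change -2.60, edgeR adjusted p = 0.00235). In AhR-deficient BMDMs LPS raised Mefv and Naip1 (1.66) and lowered Nlrp10 (-2.82) and Nlrp1a (-1.86). The only sensor called with LPS in wildtype was Mefv (pyrin), near 0 in unstimulated libraries and at 0.216 to 9.60 CPM after LPS (log2 fold change 6.25, SE 0.89). The median genotype difference of the list after LPS was -0.05, that of all genes.

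Of 12 genes that act in activation and control, 7 were called higher with LPS in each genotype and none lower, with medians of 2.35 and 3.08. Between genotypes after LPS 2 were called higher and 1 lower. Gbp3, a guanylate-binding protein, lay at 593 to 1078 CPM in AhR-deficient and 201 to 468 CPM in wildtype libraries (log2 fold change 1.32, SE 0.28, edgeR adjusted p = 0.002) and Gbp2 at 921 to 3272 and 283 to 1303 CPM (log2 fold change 1.47, SE 0.45, edgeR adjusted p = 0.0347, and 0.103 with total library sizes). Panx1, a channel that releases ATP, was lower, at 10.2 to 13.3 against 24.2 to 33.3 CPM (log2 fold change -1.32, SE 0.15, edgeR adjusted p = 9.66e-07). In the interaction Gbp3 (1.59) and Pydc4 (3.44) were called higher and Panx1 lower (-1.37). The Pydc4 call was lost in 7 of the 24 fits with 1 library left out (edgeR adjusted p up to 0.0623) and the Gbp3 call with total library sizes (edgeR adjusted p = 0.0654), and after LPS the Gbp2 call was lost in 7 of the 24 fits. The largest LPS responses of the list in wildtype were those of Pydc4 (6.59), Gbp5 (5.21), Pydc3 (5.03) and Gbp2 (4.85). Pydc3 and Pydc4 stand in the count table under the symbols Ifi208 and Ifi213. They and the guanylate-binding proteins belong to families of close copies, whose counts may lack shared reads in the same way.

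Of the 7 substrates and cytokines, 5 were called higher and 2 lower with LPS in wildtype BMDMs, and 5 and 1 in AhR-deficient BMDMs. Il1b, the cytokine that Casp1 matures, rose from 42.3 to 63.0 CPM to 8653 to 18877 CPM in wildtype BMDMs (log2 fold change 7.76, SE 0.24, edgeR adjusted p = 2.36e-16) and Il1a from 47.8 to 78.8 CPM to 6033 to 17166 CPM (7.39, SE 0.32). Il18bp (3.59) and Ninj1 (2.72), which opens the membrane after pore formation, also rose. Il18, the other cytokine Casp1 matures, fell from 27.7 to 105 CPM to 2.86 to 15.1 CPM (log2 fold change -2.60, SE 0.41, edgeR adjusted p = 1.84e-05). Between genotypes Gsdme, a pore-forming relative of Gsdmd, was lower in AhR-deficient BMDMs both without stimulation (0.317 to 1.44 against 7.49 to 25.5 CPM, log2 fold change -4.26, SE 0.35, edgeR adjusted p = 3.55e-08) and after LPS (0.383 to 0.955 against 3.43 to 6.84 CPM, log2 fold change -3.02, SE 0.34, edgeR adjusted p = 1.29e-06). Il1rn, the receptor antagonist of IL-1, rose with LPS in both genotypes (1.86 in wildtype and 3.21 in AhR-deficient BMDMs) and was the list's 1 call in the interaction (1.35, SE 0.30, edgeR adjusted p = 0.00827).

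**Figure D4:**
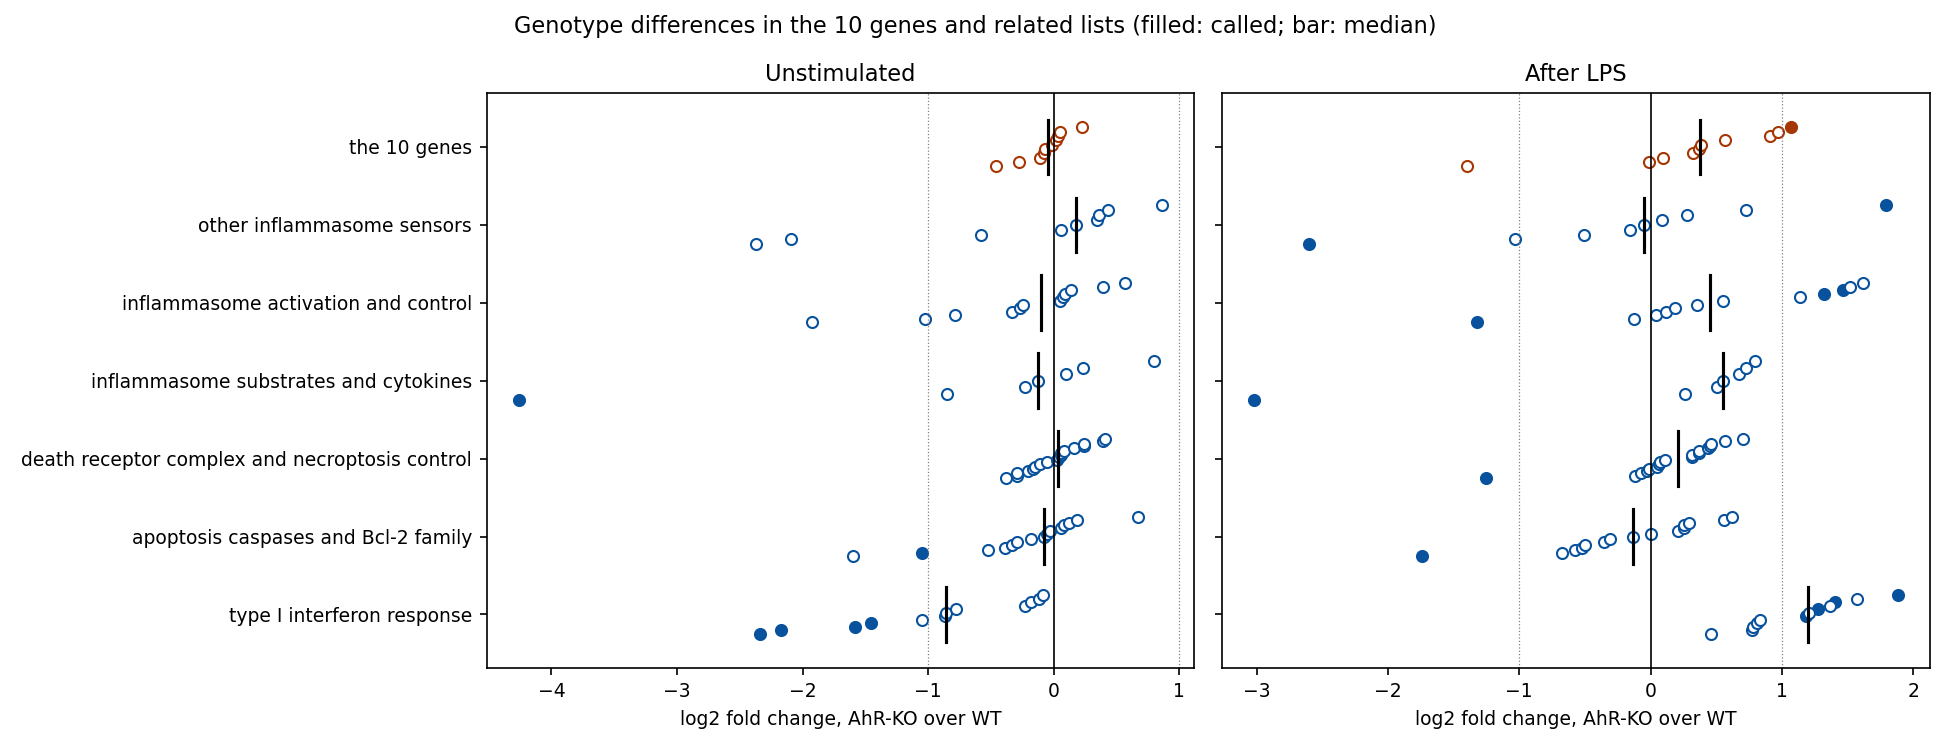
log2 fold changes of AhR-deficient over wildtype BMDMs (horizontal axes), without stimulation (left) and after LPS (right), for the 10 genes and 6 related lists (rows). Each point is a gene, filled where called, and the bar is the median: 0.38 after LPS for the 10 genes and 1.20 for the interferon list, which stood at -0.86 without stimulation.

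Around Casp8 and Ripk3, 18 genes of the death receptor complex and necroptosis control included 8 called higher with LPS in each genotype and none lower, led in wildtype by Tnfaip3 (3.45), Zbp1 (3.13), Cflar (2.52) and Birc3 (2.38). Between genotypes none was called without stimulation and 1 after LPS, Birc2, which encodes a ubiquitin ligase of the complex (31.6 to 47.8 CPM in AhR-deficient and 39.9 to 170 CPM in wildtype libraries, log2 fold change -1.26, SE 0.25, edgeR adjusted p = 0.00109). Without wildtype replicate 38 it was -0.99 and missed the fold rule. None was called in the interaction. Among 15 apoptosis caspases and Bcl-2 family members, Casp6 was called lower in AhR-deficient BMDMs without stimulation (-1.05, SE 0.23, edgeR adjusted p = 0.00456) and Bcl2 after LPS (-1.74, SE 0.51, edgeR adjusted p = 0.0259). Each lost its call in 2 of the 24 fits, Casp6 without wildtype replicate 17 (-0.97) or 18 (-0.99) and Bcl2 without wildtype replicate 21 (edgeR adjusted p = 0.0508) or AhR-deficient replicate 39 (edgeR adjusted p = 0.055). Casp6 (1.30) and Bid (1.01) were called in the interaction. With LPS, 2 of the 15 were called higher and 1 lower in wildtype, and 4 higher and 1 lower in AhR-deficient BMDMs. The 1 lowered in wildtype was Bcl2 (-1.56).

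Since transcripts of several of these genes are known to respond to type I interferon, 12 genes of that response were set beside them. All 12 were called higher with LPS in both genotypes, with median log2 fold changes of 4.63 in wildtype and 6.95 in AhR-deficient BMDMs. Without stimulation all 12 estimates lay below 0 and 4 were called lower: Oasl1 (-2.34), Usp18 (-2.17), Rsad2 (-1.58) and Irf7 (-1.46). With only the 12 unstimulated libraries in the fit Oasl1 (edgeR adjusted p = 0.119) and Irf7 (edgeR adjusted p = 0.121) did not pass. After LPS all 12 lay above 0 and 4 were called higher: Mx1 (1.88), Ifit2 (1.40), Rsad2 (1.27) and Irf7 (1.18), the last 3 not with total library sizes. In the interaction 6 were called, Oasl1 (3.91), Usp18 (2.95), Rsad2 (2.85), Irf7 (2.64), Ifit2 (2.26) and Isg15 (1.88). With 1 library left out Ifit2 lost its call after LPS in 7 of 24 fits and in the interaction in 8. Rsad2 (edgeR adjusted p = 0.0507) and Irf7 (edgeR adjusted p = 0.0564) lost theirs after LPS without AhR-deficient replicate 32. For the master regulator Irf7 the levels were 25.6 to 52.3 CPM in wildtype and 4.71 to 36.9 CPM in AhR-deficient BMDMs without stimulation, and 1497 to 1754 and 3224 to 4432 CPM after LPS. Without stimulation the 10 genes had a median of -0.04 where the interferon list had -0.86, and after LPS 0.38 where it had 1.20. The part of interferon in the values of the 10 genes was not tested.

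The genes whose pattern over the 24 libraries was most like that of Mlkl, by Pearson's r of log2(CPM + 0.5) among 12713 genes with a mean of at least 1 CPM, were Ncstn (r = 0.987), Tor3a (0.986) and Ifi211 (0.986). All 24 libraries share the LPS contrast, which moves all of them, and Ifi211 is one of a family of close copies.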

How the data were processed

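Polyadenylated RNA of 24 cultures was sequenced as directional paired-end libraries. Per the labels and the file headers, the authors aligned reads to mm10 with GSNAP and counted fragments per gene by strand on Ensembl 98 exons with featureCounts 2.0.1, and the deposited values are raw counts. All columns were matched to samples by their titles. Levels were computed as CPM on TMM-scaled library sizes. Counts were fitted in 1 model of the 4 groups with edgeR 4.0.16 (robust quasi-likelihood, genes kept by filterByExpr), with Benjamini-Hochberg adjustment over 16593 genes. Calls required adjusted p ≤ 0.05 together with an absolute log2 fold change ≥ 1, and in the interaction only the former. The fitting scripts were tested on simulated data, with 200 genes changed by a log2 of 2. Of these, edgeR called 61.5% in the genotype comparison without stimulation, 68.5% in that after LPS and 54% in the interaction. It also called 6, 7 and 7 unchanged genes. The 10 genes and all lists were chosen with earlier results of these data known. The genes named were the 10 members, every list gene called between genotypes or in the interaction, and those with the largest LPS responses of each list, of which some are not reported here. Alternatives were other scalings, filters and tools (DESeq2 1.42.0, limma 3.58.1), covariates, and leaving out each library. Counts of 45106052 to 76992663 per library limit precision mainly for Nlrp1b.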

Additional observations from a re-analysis of the deposited data

Results flagged for a closer look

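Pycard had 638 CPM in unstimulated wildtype replicate 33, and the next highest library of that group had 346 CPM, a gap of 0.641 of the group's whole range. Among the 40 combinations of gene and group examined in this way it was the only one so far from the others. By chance alone about 1 in every 20 combinations would be so far off. The same library had the highest summed neutrophil markers of all 24 (11963 CPM) and the second lowest length slope of all (-0.28), a measure against which Pycard fell. Their part in the Pycard value was not tested.

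The LPS response of Casp1 differed between genotypes by a log2 of 0.92 in the interaction test (edgeR adjusted p = 0.0309). The call was lost in 9 of the 24 fits that left out 1 library (edgeR adjusted p up to 0.061). It was also lost with total library sizes (edgeR adjusted p = 0.0831) and with no filter (edgeR adjusted p = 0.0644).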

How the results depend on the processing

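No paired analysis was possible because each library number is used once, so the groups share no replicate numbers. A fit with the run of 8 libraries as a factor was made in its place and is given below. The absence of any genotype call among the 10 genes without stimulation held in all 24 fits that left out 1 library and under all 12 other settings, and at least the 6 LPS calls of each genotype were made in all of them. Without stimulation, Pycard and Gsdmd each passed the adjusted p alone, below 2-fold, in at least 1 of the 12 settings. Counts in the genotype comparison after LPS and in the interaction did move, from 1 each. After LPS, 2 of the 10 were called with DESeq2 size factors, a mean of at least 1 CPM or only the 12 libraries compared (Casp1 and Mlkl) and with the length slope as covariate (Nlrp1b and Mlkl). DESeq2 called 3 (Nlrp1b, Casp1 and Mlkl), as did dropping the minimum fold (Casp1, Casp4 and Mlkl), and leaving out 1 library gave 1 to 3. With total library sizes Nlrp1b alone was called (-1.62, adjusted p = 0.0436). The interaction held 0 of the 10 with total library sizes or no filter, 3 with a mean of at least 1 CPM or DESeq2 (Casp1, Casp4 and Gsdmd), 4 with the run as factor, 7 with the length slope, and 0 to 3 with 1 library left out. Over all genes, dropping the minimum fold gave 2095 calls in place of 1385 between genotypes after LPS and 6305 in place of 4137 for LPS in wildtype, by its own construction. The interaction rose from 713 genes to 1125 with DESeq2, 1201 with the run and 2729 with the length slope. Apart from dropping the fold, the cause was not tested.

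Total library sizes lowered the share of calls that were higher from 26 to 14.9% between genotypes after LPS, from 52.8 to 33.9% for LPS in wildtype, from 49 to 28.2% for LPS in AhR-deficient BMDMs and from 45.4 to 31.4% in the interaction. They also moved the median log2 fold change of all genes to -0.09, -0.26, -0.31 and -0.52 in the genotype comparisons without and with LPS and the LPS comparisons in wildtype and AhR-deficient BMDMs.

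All values of the 10 genes that changed sign were uncalled. Without stimulation these were Nlrp1b at 0.00044 (DESeq2 size factors), 0.013 (limma-voom), 0.018 (run as factor) and 0.0057 (12 libraries), Casp1 at -0.047 and Casp4 at -0.033 (total size), and Ripk3 at -0.061 (total size), -0.013 (length slope), -0.028 (Y-linked expression as covariate) and -0.026 (without libraries 33 and 37, a setting chosen after seeing the data). After LPS, Casp8 reached 0.016 (DESeq2 size factors and DESeq2), 0.045 (mean of at least 1 CPM), 0.015 (12 libraries) and 0.046 (without 33 and 37), and Pycard -0.081 (total size). With LPS in AhR-deficient BMDMs Pycard reached -0.33 (total size) and -0.0025 (run), and Casp8 in the interaction -0.037 (total size). With 1 library left out, values ranged without stimulation from -0.25 to 0.13 for Nlrp3, -0.15 to 0.069 for Nlrp1b, -0.0088 to 0.11 for Casp1, -0.019 to 0.089 for Casp4 and -0.062 to 0.086 for Ripk3, after LPS from -0.064 to 0.05 for Casp8 and -0.086 to 0.35 for Pycard, and with LPS in AhR-deficient BMDMs from -0.051 to 0.41 for Pycard.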
